A study of Mus musculus with 8 samples.

Results

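Myelin is the stack of compacted glial membrane that insulates an axon. In peripheral nerve it is made by Schwann cells, which load their membrane with a small set of structural proteins and with galactose-bearing sphingolipids. Mbp, Pmp22, Pmp2, Cnp, Mal and Pllp encode proteins of the sheath, and Fa2h and Ugt8a encode enzymes that build its characteristic lipids. These 8 genes were followed here through every array probe that carries one of their names, 8 of 34821 names in all, which gave 11 of the 55681 probes on the array. Of the 11, 10 were well above background in the nerve channel on 4 or more of the 8 arrays, which was the condition for testing. The other, an Mbp probe, was well above background in nerve on 0 arrays.

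Sciatic nerve RNA came from male mice at 60 days of age, 4 carrying the SOD1G93A transgene and 4 wild-type (WT), described as biological replicates. SOD1G93A is a mutant human SOD1 used to model amyotrophic lateral sclerosis, and the title of the series calls these animals presymptomatic. The promoter and copy number of the transgene are not given in the sources used here. Each 2-colour array set nerve RNA, labelled with Cy3, against Cy5-labelled RNA of neonatal hearts, livers and kidneys, a common pool in which both genotypes had been combined, and the dyes were never swapped. A positive log2 ratio therefore means more signal from nerve than from the pool, and dye bias cannot be told apart from that ratio. All 8 arrays were on 1 slide, where one position number followed genotype, so position and genotype cannot be told apart. Between 35.5% and 41.7% of the 59305 non-control spots were well above background in Cy3, against 48.7% to 51.1% in Cy5, and 0 spots were saturated.

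The tissue label was checked against marker genes. All 8 listed Schwann cell identity genes were measured and had a mean nerve signal above the pool, with a median log2 ratio of 3.89. Of 11 oligodendrocyte genes, which mark the myelinating cell of the central nervous system, 3 passed the filter, and each of the other 8 was well above background on at most 1 array. All 6 heart, 4 liver and 2 kidney markers that passed lay below the pool, with a median of -4.09 for heart.

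The probes are 60 bases long, and their place on the transcript decides which form of a gene is read. The 2 probes printed here lie in coding sequence, and the capitals in the Pmp22 probe mark the stop codon, after which 4 bases remain. They are designed probes of the array, placed by the deposited files on mm9 at chr11:62971862-62971921 (plus strand) and chr3:10182422-10182481 (minus strand).
Pmp22 probe A_55_P2040168: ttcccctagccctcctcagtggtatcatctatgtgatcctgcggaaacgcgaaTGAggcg
Pmp2 probe A_52_P89767: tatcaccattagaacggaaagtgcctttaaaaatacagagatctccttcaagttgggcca

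Promoter sequence is shown for Cnp and Pllp, a structural enzyme of the sheath and a raft protein, as examples. The stretches come from RefSeq on GRCm38.p6 and end at the base before the start of transcription, at chr11:100574689-100574908 (plus strand) for Cnp and chr8:94696243-94696492 (minus strand) for Pllp. Capitals mark the core letters bound by SOX factors in Cnp and 2 GC boxes in Pllp.
Cnp promoter: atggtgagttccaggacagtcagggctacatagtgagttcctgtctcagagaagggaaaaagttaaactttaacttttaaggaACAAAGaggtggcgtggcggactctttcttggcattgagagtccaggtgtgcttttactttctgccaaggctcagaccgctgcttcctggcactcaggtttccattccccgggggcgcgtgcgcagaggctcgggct
Pllp promoter: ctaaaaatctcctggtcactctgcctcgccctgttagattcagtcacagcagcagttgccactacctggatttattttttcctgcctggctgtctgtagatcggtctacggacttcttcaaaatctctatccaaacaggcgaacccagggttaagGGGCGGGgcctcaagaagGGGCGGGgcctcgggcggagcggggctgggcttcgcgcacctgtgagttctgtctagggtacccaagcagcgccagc

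Promoters of 5 of the 8 genes, Pmp22, Cnp, Mal, Pllp and Ugt8a, were in the RefSeq table. The 3 motifs, which do not overlap in the printed stretches, were searched on both strands in the first 250 bases of each promoter sequence. For Cnp this window runs past the start of transcription, where the printed stretch ends. A gene counts if any promoter listed for it matched, whereas the shares are over single promoters. ACAAAG, the SOX core, was found in 1 of the 5, Cnp, against 16.5% of 32851 promoters. GGGCGGG, the GC box, was found in 4 of the 5, Cnp, Pllp, Pmp22 and Ugt8a, against 23.4% of all. The printed Cnp stretch has 0 GC boxes, so the match of Cnp was not located before its start of transcription. GCGGGGGCG, the letters bound by EGR factors such as Egr2, was found in 0 of the 5, against 2.57% of all. A match describes letters in this window and is not evidence of binding.

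Nerve signal exceeded the pool for all 8 genes. The ratio was above 0 on all 8 arrays for 9 of the 10 tested probes, against 39.3% of all tested probes, and above 3 on all 8 arrays for the same 9, against 0.883%. Both shares describe genes that were listed for being myelin genes of nerve, and no test was made of the ratio against 0.

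**Figure D1:**
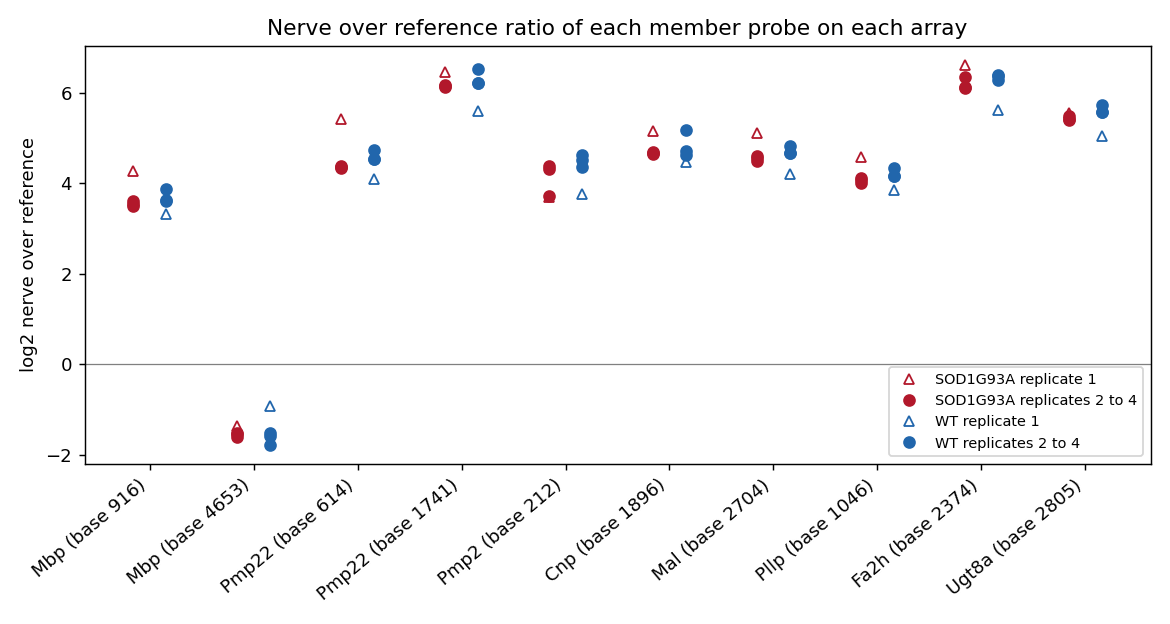
Log2 ratio of nerve (Cy3) over reference pool (Cy5) for the 10 tested probes on each array, SOD1G93A in red left of WT in blue, with replicate 1 of each genotype as open triangles and the others as filled circles. Probes are named by gene and by the transcript base at which they start. All but 1 Mbp probe lie above 3, and the triangles stand high in SOD1G93A and low in WT for most probes.

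Mbp encodes the cytoplasmic protein that zips the inner membrane faces together. Its brightest probe, A_52_P329451, starts at transcript base 916 and spans a splice junction between chr18:82742266 and 82744570 (plus strand, mm9). The log2 ratio was 4.26, 3.54, 3.60 and 3.51 in SOD1G93A nerves, against 3.33, 3.87, 3.63 and 3.60 in WT nerves (replicates 1 to 4, the order kept throughout). The SOD1G93A array numbered 1 was the highest of all 8 and the WT array numbered 1 the lowest. The genotypes overlapped, since SOD1G93A replicates 2 to 4 lay below WT replicates 2 to 4 but above WT replicate 1. The means were 3.73 ± 0.36 in SOD1G93A and 3.61 ± 0.22 in WT (SD, n = 4 each), a mean of 12.7-fold over the pool across the 8 arrays. The difference, SOD1G93A minus WT, was 0.12 ± 0.18 (SE), with limma adjusted p = 0.838.

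The other Mbp probes gave a different picture. Probe A_52_P604195, at chr18:82727929-82727988, starts at base 4653 of a longer transcript and is listed with 1 transcript, where A_52_P329451 is listed with 4. The Mbp gene also gives rise to golli transcripts from an upstream start, which are found outside myelin as well. The ratio of this probe was -1.36, -1.53, -1.52 and -1.61 in SOD1G93A nerves, against -0.93, -1.78, -1.60 and -1.51 in WT nerves. Every array was below the pool, at 0.359-fold on average, and the highest value was that of WT replicate 1. The genotypes differed by -0.05 ± 0.17 (SE, limma adjusted p = 0.931). Probe A_55_P1992160, farther upstream at chr18:82691469-82691528, was not well above background in nerve on any array and was in the pool on all 8. After normalisation the lower bound of pool over nerve there was 1.06-fold, which cannot be told apart from dye bias.

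Pmp22 is a tetraspan membrane protein of compact peripheral myelin, and its gene dosage is altered in inherited human neuropathies. Probe A_55_P2040168, printed above, gave ratios of 5.42, 4.35, 4.37 and 4.33 in SOD1G93A nerves, against 4.09, 4.74, 4.53 and 4.53 in WT nerves. Probe A_55_P2040170, at chr11:62972989-62973048 and base 1741, gave 6.46, 6.15, 6.18 and 6.12 in SOD1G93A nerves, against 5.60, 6.52, 6.21 and 6.22 in WT nerves. On both probes SOD1G93A replicates 2 to 4 lay within a narrow band below WT replicates 2 to 4, while SOD1G93A replicate 1 was the highest SOD1G93A array and WT replicate 1 the lowest of all 8. On the probe starting at base 1741, SOD1G93A replicate 1 stayed below WT replicate 2. The differences were 0.15 ± 0.25 and 0.09 ± 0.18 (SE), with limma adjusted p = 0.855 and 0.880. The 2 probes did not vary alike: their ratios lay 1.04, 1.80, 1.80 and 1.79 apart in SOD1G93A nerves, against 1.51, 1.78, 1.67 and 1.70 in WT nerves, so the gap was narrowest on SOD1G93A replicate 1.

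Pmp2 is a fatty acid binding protein of the peripheral sheath. Its ratio was 3.69, 4.32, 3.72 and 4.39 in SOD1G93A nerves, against 3.77, 4.62, 4.36 and 4.52 in WT nerves. Here the array numbered 1 was low in both genotypes and SOD1G93A replicate 3 was low beside it, and on each of the 9 other tested probes SOD1G93A replicate 1 was the highest SOD1G93A array. The means were 4.03 ± 0.38 in SOD1G93A and 4.32 ± 0.38 in WT (SD, n = 4 each). The difference of -0.29 ± 0.22 (SE) had the smallest adjusted p of the 10 probes, 0.671 by limma, with a 95% confidence interval from -0.79 to 0.21. It came to 0.28 with Agilent's processed signals, the other direction. The Pmp2 signal of the pool was the dimmest of the 10, with an intensity of 25.5, 48.4, 40.5 and 45.4 on the SOD1G93A arrays, against 36.6, 40.8, 47.6 and 56.0 on the WT arrays, and was well above background on 7 of 8 arrays.

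Cnp, a cyclic nucleotide phosphodiesterase of the non-compact myelin membrane, was read at chr11:100442617-100442676. Its ratio was 5.16, 4.64, 4.67 and 4.70 in SOD1G93A nerves, against 4.48, 5.17, 4.62 and 4.71 in WT nerves. SOD1G93A replicate 1 and WT replicate 2 shared the highest ratio, and the other SOD1G93A arrays lay among the WT values. These were also the arrays with the lowest pool intensity for Cnp, 626 on SOD1G93A replicate 1 and 518 on WT replicate 2. The means of 4.79 ± 0.25 in SOD1G93A and 4.75 ± 0.30 in WT (SD, n = 4 each) differed by 0.05 ± 0.17 (SE, limma adjusted p = 0.937).

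Mal and Pllp are small proteolipids of the glycosphingolipid-rich membrane domains of myelin. Mal, at chr2:127458976-127459035 (minus strand), had ratios of 5.12, 4.60, 4.48 and 4.57 in SOD1G93A nerves, against 4.21, 4.82, 4.67 and 4.66 in WT nerves. Pllp, at chr8:97199578-97199637 (minus strand), had 4.57, 4.00, 4.08 and 4.12 in SOD1G93A nerves, against 3.84, 4.34, 4.17 and 4.16 in WT nerves. Both genes resembled the Pmp22 probe starting at base 614, with SOD1G93A replicate 1 highest and WT replicate 1 lowest of all. The differences were 0.10 ± 0.17 for Mal and 0.06 ± 0.15 for Pllp (SE, limma adjusted p = 0.853 and 0.895).

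Fa2h adds the hydroxyl group to the fatty acids of myelin lipids, and Ugt8a transfers galactose to ceramide to make galactosylceramide. Fa2h, at chr8:113869096-113869155 (minus strand), had ratios of 6.61, 6.34, 6.13 and 6.11 in SOD1G93A nerves, against 5.62, 6.38, 6.39 and 6.28 in WT nerves. Ugt8a, at chr3:125568995-125569054 (minus strand), had 5.54, 5.48, 5.39 and 5.42 in SOD1G93A nerves, against 5.04, 5.72, 5.57 and 5.58 in WT nerves. WT replicate 1 was the lowest array for both enzymes. SOD1G93A replicate 1 was the highest for Fa2h only, and for Ugt8a it lay below WT replicates 2 to 4. The differences were 0.13 ± 0.19 for Fa2h and -0.02 ± 0.14 for Ugt8a (SE, limma adjusted p = 0.823 and 0.971). Nerve exceeded the pool 75.2-fold for Fa2h and 44.3-fold for Ugt8a on average, against 72.6-fold and 23.4-fold for the Pmp22 probes starting at bases 1741 and 614, 27.3-fold for Cnp, 24.9-fold for Mal, 18.0-fold for Pmp2 and 17.9-fold for Pllp. These ratios depend on the pool as much as on nerve and do not rank transcript levels. For the 3 genes dimmest in the pool they also depend on the offset added before the ratio was taken: with no offset, the mean log2 ratio was 5.64 in place of 4.17 for Pmp2, 6.95 in place of 6.23 for Fa2h and 6.08 in place of 5.47 for Ugt8a.

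Across the 8 arrays, 0 of the 10 tested probes were called by limma at an adjusted p under 0.05, against 0.171% of all 19838 tested probes, and 0 had an unadjusted p under 0.05, against 10.9%. The difference was above 0 for 7 and below 0 for 3, against 45.4% of all tested probes above 0, and the genotypes overlapped on all 10, where 7.52% of all probes did not overlap. The median over the 8 genes, each by its brightest probe, was 0.08, against -0.02 over all 15343 genes. The confidence intervals reached as low as -0.79, for Pmp2, and as high as 0.70, for the brightest Pmp22 probe. The narrowest was that of Ugt8a, from -0.34 to 0.29. For each probe, a true difference within its own interval is not excluded by these arrays.

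The arrays numbered 1 stood apart within their genotypes. SOD1G93A replicate 1 was above the other 3 SOD1G93A arrays for 9 of the 10 probes, against 34.8% of all tested probes, and WT replicate 1 was below the other 3 WT arrays for 9, against 31.2%. Both held for 8. Averaged over the 8 genes after centring each on its own mean, the log2 ratio was 0.34, -0.05, -0.15 and -0.07 on the SOD1G93A arrays, against -0.41, 0.25, 0.04 and 0.05 on the WT arrays. WT replicate 2 was thus the highest array after SOD1G93A replicate 1, and all but these 2 and WT replicate 1 lay between -0.15 and 0.05. The median over all genes, centred in the same way, stayed between -0.04 and 0.02 on every array.

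Without the 2 arrays numbered 1, the difference was below 0 for all 8 genes by their brightest probes and for 9 of the 10 probes, against 52.4% of all tested probes. The exception was the Mbp probe starting at base 4653, at 0.08 ± 0.09 (SE). The median over the 8 genes was -0.17, with a range from -0.36 for Pmp2 to -0.15 for Mbp, against -0.01 over all genes. Still, 0 of the 10 were called, against 1.31% of all tested probes. The smallest adjusted p was 0.199, for the Pmp22 probe starting at base 614, whose difference of -0.25 ± 0.08 (SE) had a 95% confidence interval from -0.44 to -0.06 in this limma fit. Ugt8a followed with -0.20 ± 0.07 (SE, limma adjusted p = 0.249). These were the only 2 of the 10 probes with an unadjusted p under 0.05, against 16.6% of all tested probes. All 3 SOD1G93A values were below all 3 WT values for 6 probes, those of Pmp22, Mal, Pllp and Ugt8a and the brightest of Mbp, against 12.5% of all tested probes. The genes move together over the same 6 arrays, so these are not 6 separate observations.

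**Figure D2:**
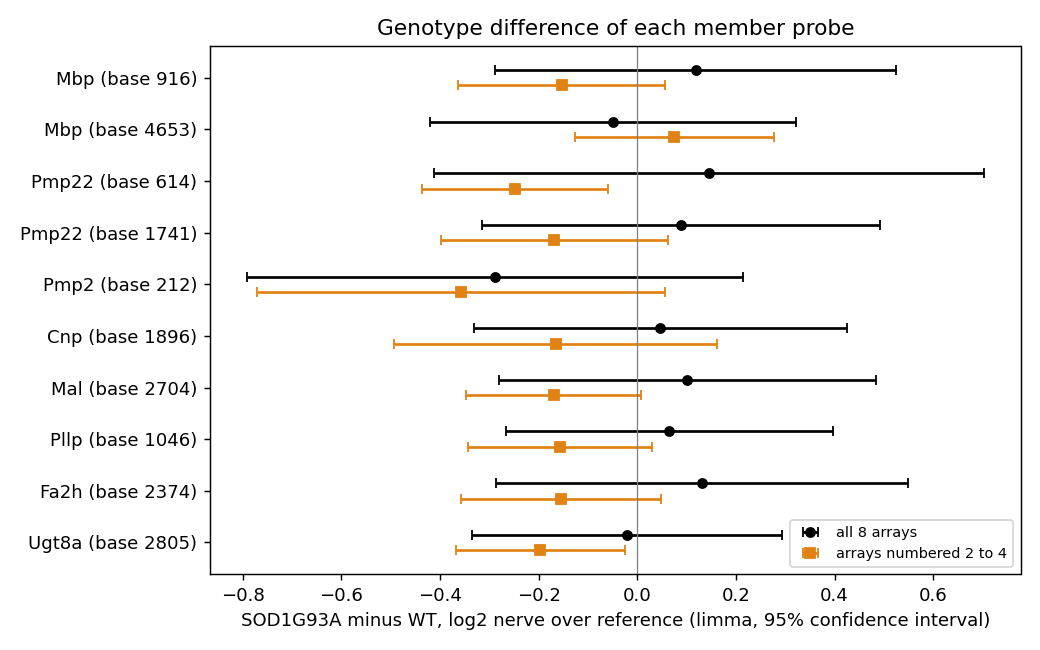
Difference in log2 ratio, SOD1G93A minus WT, for the 10 tested probes with 95% confidence intervals from limma, over all 8 arrays (black circles) and over the 6 arrays numbered 2 to 4 (orange squares). With all arrays every interval spans 0. Without the arrays numbered 1, 9 of 10 estimates lie below 0, and the intervals of the Pmp22 probe starting at base 614 and of Ugt8a do not reach it.

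The 2 colours were also looked at apart, since the pool is the same RNA on every array. For the brightest Mbp probe the pool signal was 651, 1919, 1887 and 1920 on the SOD1G93A arrays, against 1712, 1494, 1727 and 2134 on the WT arrays, as mean spot intensity. The nerve signal of the same spots was 11551, 30682, 30475 and 28679 in SOD1G93A, against 28398, 23002, 27009 and 30355 in WT. SOD1G93A replicate 1 was thus dimmest in both colours, and more so in the pool, so the high Mbp ratio of that array came with the lowest nerve signal of all 8. Pllp was also dimmest in both colours on that array before normalisation, with a pool signal of 359, 683, 520 and 634 on the SOD1G93A arrays, against 509, 579, 723 and 675 on the WT arrays. After normalisation between arrays, however, its lowest log2 nerve signal was on WT replicate 1, at 13.39, against 13.69 on SOD1G93A replicate 1. The Pmp22 probe starting at base 1741 was instead brightest in the pool on SOD1G93A replicate 1, with 1025, 696, 689 and 568 on the SOD1G93A arrays, against 759, 742, 646 and 632 on the WT arrays.

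In the nerve channel alone, normalised between arrays, the difference was below 0 for 8 of the 10 probes, against 47.3% of all tested probes. It was above 0 for Cnp and the Pmp22 probe starting at base 1741. Of the 10, 0 were called, against 36 of all 19838 tested probes, and the median over the 8 genes was -0.06. In the pool channel alone every array carried the same RNA. There the difference was also below 0 for 8 of 10, against 52% of all tested probes, and above 0 for the same 2 probes. It ranged from -0.22 for the Pmp22 probe starting at base 614 to 0.14 for the one starting at base 1741. By limma 0 of the 10 were called, against 0.151% of all tested probes. Of the 10, 1 had an unadjusted p under 0.05, against 2740 of all 19838 tested probes. The median over the 8 genes was -0.12 in the pool channel, and the median absolute difference over all genes was 0.05. This fit used all 8 arrays and was not repeated without the arrays numbered 1. What the pool signal contributes to the differences in ratio was not tested.

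**Figure D3:**
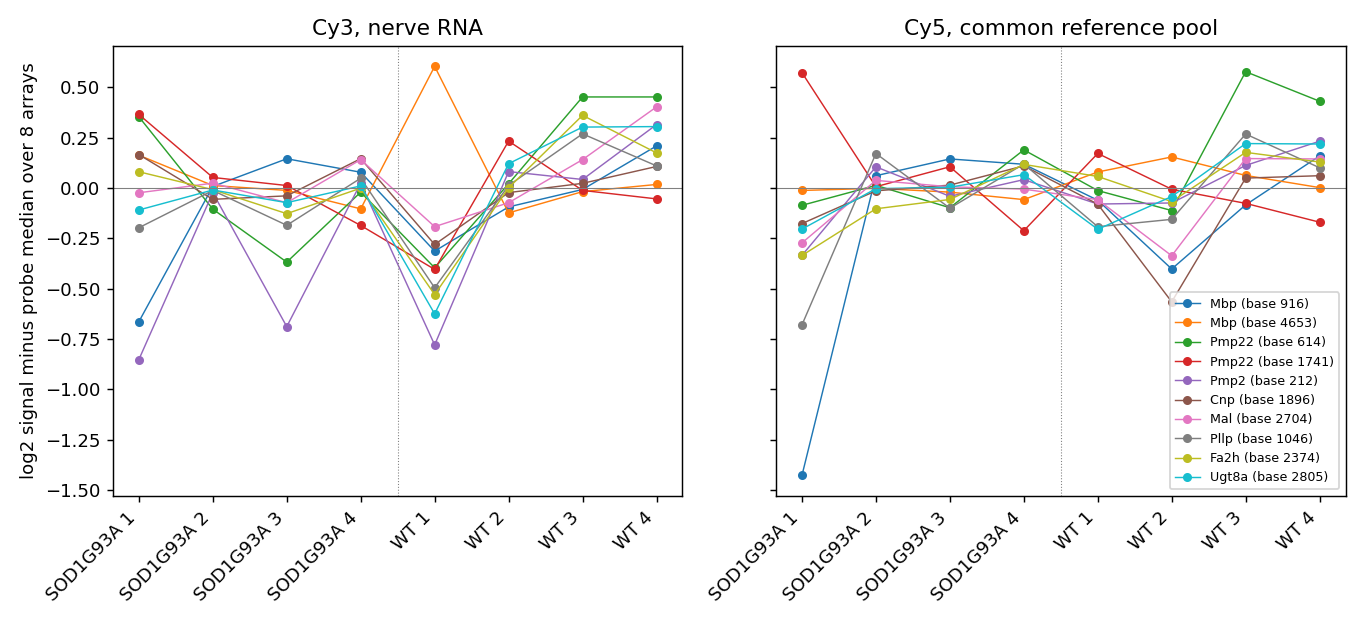
Signal of the 10 tested probes on each array in the nerve channel (left) and in the pool channel (right), as log2 signal after normalisation between arrays, minus the median of that probe over the 8 arrays, with SOD1G93A arrays left of the dotted line and WT arrays right of it. The pool channel would be flat if the same RNA gave the same signal on every array. There, the brightest Mbp probe, Pllp and the Pmp22 probe starting at base 1741 depart most on SOD1G93A replicate 1.

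Nerve signal was far above background for all genes but the weak Mbp forms. Over the 8 arrays the nerve intensity lay between 75157 and 109611 for Mal, 66954 and 110851 for the Pmp22 probe starting at base 614, and 55436 and 71817 for the one starting at base 1741. It lay between 20132 and 27965 for Cnp, 8592 and 18314 for Pllp, 8985 and 16892 for Fa2h, 5217 and 11018 for Ugt8a, and 866 and 3120 for Pmp2. Before normalisation, SOD1G93A replicate 1 was the dimmest array for Mbp by its brightest probe and for Mal, Cnp, Pllp, Fa2h, Ugt8a and Pmp2. Of these, only Pmp2 had its lowest ratio there. That array also had the lowest median Cy3 intensity over all non-control spots, 121.8. After normalisation between arrays it stayed lowest in nerve signal only for Mbp and Pmp2. For Mal, Cnp, Pllp, Fa2h and Ugt8a the lowest was then WT replicate 1, and for Cnp SOD1G93A replicate 1 was the highest. The Mbp probe starting at base 4653 had 319 to 834, with the highest value on WT replicate 1.

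The other myelin genes had a like pattern, with a mean centred log2 ratio of 0.32, -0.02, -0.06 and -0.01 on the SOD1G93A arrays, against -0.34, 0.07, -0.04 and 0.09 on the WT arrays. Of these 17 further myelin and Schwann cell junction genes, all tested, 15 had a difference above 0 and 2 below it, against 45.4% of all tested probes above 0. By limma 0 were called and 3 had an unadjusted p under 0.05, against 10.9% of all tested probes. Their median was 0.13, and -0.10 without the arrays numbered 1, where 13 were below 0, against 52.4% of all tested probes, and again 0 were called. The tetraspanin Tspan2 had the smallest p of the list, with ratios of -2.62, -2.57, -2.39 and -2.65 in SOD1G93A nerves, against -1.85, -2.06, -2.06 and -2.15 in WT nerves. The genotypes did not overlap, at a difference of -0.53 ± 0.10 (SE, limma adjusted p = 0.0917), but the probe was below the pool and was called under only 2 of 21 alternative settings. Cd9, another tetraspanin, differed by -0.11 ± 0.23 (SE). Mpp6, a scaffold protein of the Schwann cell incisures, differed by 0.50 ± 0.15 (SE, limma adjusted p = 0.260), and Dhh, the hedgehog ligand that Schwann cells secrete, by 0.27 ± 0.12 (SE, limma adjusted p = 0.454).

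Fa2h and Ugt8a serve the pathway of sphingolipid and galactolipid synthesis, of which 18 listed genes were named on the array and 14 were tested. The difference was below 0 for 11 and above 0 for 3, at a median of -0.09, against 54.6% of all tested probes below 0. Without the arrays numbered 1 it was below 0 for all 14, at a median of -0.20, against 52.4% of all tested probes. The list had 1 call, against 0.171% of all tested probes, and 13 genes were not called. The call was Degs2, which desaturates and hydroxylates ceramide precursors. Its ratio was 0.83, 0.87, 0.99 and 0.59 in SOD1G93A nerves, against 1.46, 1.41, 1.50 and 1.62 in WT nerves. Every SOD1G93A value was below every WT value, and with a log2 change of -0.68 ± 0.10 (SE) Degs2 fell at a limma adjusted p of 0.0443. The call held in 5 of 21 alternative settings, with an adjusted p from 0.0133 to 0.533, while the direction held in all 21. It held without both arrays numbered 1, at -0.69 and an adjusted p of 0.0415 by limma. It was lost without any single one of SOD1G93A replicates 2 to 4 or WT replicates 1 to 4, with adjusted p from 0.0997 to 0.167.

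Sptlc1, a subunit of the enzyme that commits serine to sphingolipids, differed by -0.34 ± 0.13 (SE, limma adjusted p = 0.379). Gal3st1, which sulfates the product of Ugt8a to sulfatide, and Elovl1, which lengthens saturated fatty acids, differed by 0.09 ± 0.12 and 0.08 ± 0.12 (SE), neither of them called. Of 9 genes of lysosomal breakdown of myelin lipids, 8 were tested, 4 above and 4 below 0, with a median of -0.01, 0 called and 0 with an unadjusted p under 0.05. Psap, the saposin precursor, differed by 0.26 ± 0.13 (SE). Asah1, the acid ceramidase, and Arsa, which removes sulfate from sulfatide, differed by -0.38 ± 0.19 and -0.08 ± 0.08 (SE). None of these 3 passed, the smallest limma adjusted p among them being 0.503.

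The genes whose centred ratios over the 8 arrays lay closest to the mean pattern of the 8 myelin genes were Lctl, a klotho-family member, Serpind1, a thrombin inhibitor, Tram2, a translocon protein, St8sia5, a ganglioside sialyltransferase, and Mag, the adhesion receptor of myelin that faces the axon. Their root mean square differences from that pattern were 0.053, 0.059, 0.062, 0.064 and 0.065 on the log2 scale, against a median of 0.322 over 8828 genes that varied enough to be compared. The 8 genes themselves, which make up the pattern, ranged from 0.057 for Mal and 0.070 for Pllp to 0.361 for Pmp2, so Pmp2 followed it least.

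Markers of other cell types varied over the same arrays. Skeletal muscle markers, 9 of 13 tested, had a mean centred log2 ratio of -0.69, -1.00, -1.00 and -0.82 on the SOD1G93A arrays, against 2.90, 2.00, -0.81 and -0.59 on the WT arrays. Adipocyte markers, 9 of 10 tested, had -0.21, -0.07, -0.16 and -1.43 in SOD1G93A, against 1.21, 0.91, 0.14 and -0.39 in WT. Both lists were highest in WT replicates 1 and 2, of which replicate 1 was the lowest array for the myelin genes and replicate 2 was above all but SOD1G93A replicate 1. All 11 tested macrophage markers had a difference above 0, at a median of 0.47 with 1 called, against 0.171% of all tested probes. Without the arrays numbered 1 that median was 0.92, with 7 called, against 1.31%. Their mean was -0.49, 0.39, 0.47 and 0.73 on the SOD1G93A arrays, against -0.11, -0.22, -0.51 and -0.25 on the WT arrays. Schwann cell identity genes, 3 of which are also in the list of other myelin genes, had 0.36, -0.07, -0.09 and -0.08 in SOD1G93A, against -0.22, 0.06, 0.03 and 0.02 in WT. They were highest on SOD1G93A replicate 1 and lowest on WT replicate 1, as the myelin genes were, but departed less from 0 on WT replicates 1 and 2. All 9 endothelial markers and 7 of 8 pericyte and smooth muscle markers were below 0, at medians of -0.54 and -0.65 with 0 called. Of the endothelial markers 7 had an unadjusted p under 0.05 on the 8 arrays, against 10.9% of all tested probes. Without the arrays numbered 1, 2 of them were called, against 1.31%, and 0 of the pericyte and smooth muscle, muscle and adipocyte markers. Of the 3 tested oligodendrocyte genes, 2 were then below 0 and 1 above. Ermn was called there, at -1.19 (limma adjusted p = 0.00837), but not on all 8 arrays, at -0.66 (limma adjusted p = 0.562). Fibroblast genes had 5 of 7 below 0, at a median of -0.05, and neuronal transcripts of the axon 4 of 5, at -0.04, again with 0 called. The part that any of these cell types has in the myelin values was not tested. In whole nerve, fewer cells of a type and less RNA per cell cannot be told apart.

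**Figure D4:**
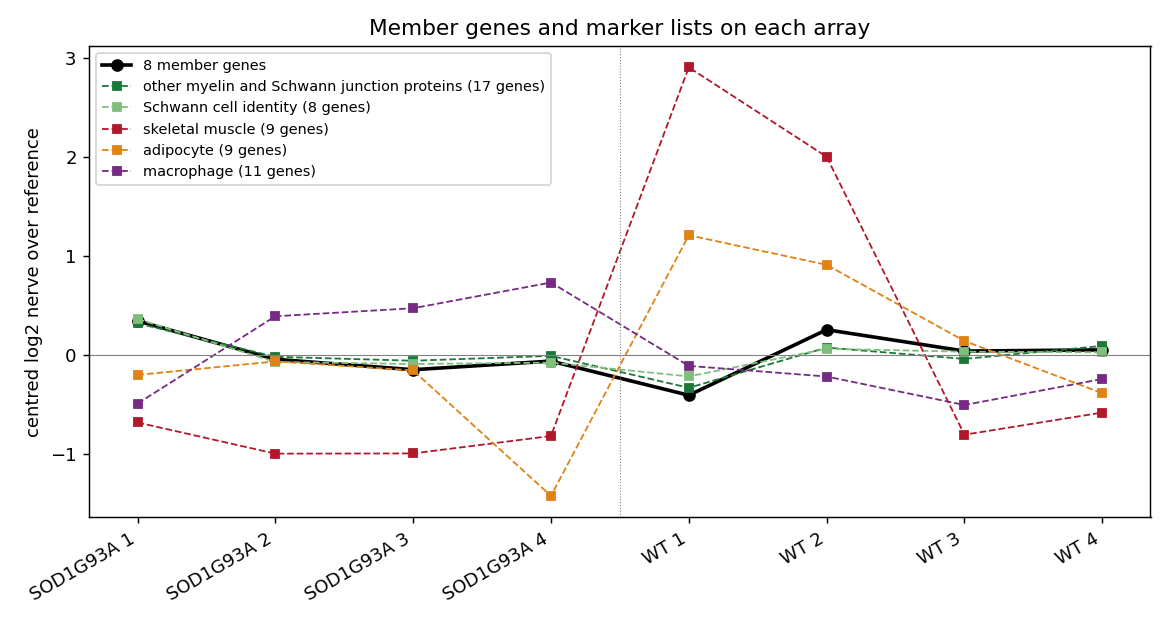
Mean centred log2 ratio on each array for the 8 myelin genes (black) and for 5 marker lists, with SOD1G93A arrays left of the dotted line and WT arrays right of it. The myelin genes, the other myelin genes and the Schwann cell identity genes share their extremes, highest on SOD1G93A replicate 1 and lowest on WT replicate 1, while muscle and adipocyte markers are highest on WT replicates 1 and 2.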

How the data were processed

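Scanner output with linear spot intensity in both colours, local background and flags was deposited. Its headers give Agilent Feature Extraction 11.5.1.1, whereas version 11.0.1.1, and limma for an unstated purpose, appear in the submitters' processing notes. The series table that the authors deposited gives Cy5 over Cy3 as log10 ratios, equal to the scanner output's own on every spot, and served as an alternative with its sign turned. Flags and probe names among the other deposited columns have no scale.

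From these, mean intensities were corrected with normexp (offset 50) against the median local background and normalised by loess within arrays, with control spots at weight 0. Spots with a non-uniformity or population outlier flag were dropped before spots of a probe were averaged. One fit took in the 19838 probes whose Cy3 signal was well above background on 4 or more arrays, with limma 3.58.1 (lmFit, eBayes), R 4.3.3 and data.table, version 1.17.8, without covariates. Tests were 2-sided, p-values were adjusted by Benjamini-Hochberg over all of these probes, and 0.05 was the threshold. The fit was tested on simulated data. A gene with several probes stands in medians and lists by its brightest tested one.

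Every probe of the 8 genes is reported. Of each of the other myelin and lipid lists the 2 genes with the smallest p in each direction and any called gene are named, and the 5 genes with the smallest root mean square difference from the mean pattern. 1 gene named by these rules is left out here. The 8 genes and the lists were chosen with earlier results of these data known. Gene names and mm9 positions are those of the files, and exon and UTR annotation on mm9 was not used here. Replicate numbers were not treated as pairs: deviations of same-numbered arrays correlated at -0.17, 0.03, -0.12 and 0.09 over probes. Precision is limited by the number of arrays. Alternatives were tried for background correction, normalisation, single channels, probe filters, array weights, the variance model, a replicate block and left-out arrays.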

Additional observations from a re-analysis of the deposited data

Results flagged for a closer look

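Within each genotype's 4 arrays, 4 of 20 sets of ratios had one array far from the others by Dixon's test at its 95% critical value, which chance passes in about 1 in 20. SOD1G93A replicate 1 was the high one for the brightest Mbp probe, A_52_P329451, at 4.26 against 3.60 for the next array. It was also the high one for the Pmp22 probe A_55_P2040168, at 5.42 against 4.37, and for Cnp, at 5.16 against 4.70. WT replicate 1 was the low one for Fa2h, at 5.62 against 6.28 for the next array. The 4 cases share 2 arrays and are not independent. No share of all tested probes passing this test is given, so the count does not set the myelin genes apart from other genes. Over all tested probes, SOD1G93A replicate 1 was above its group for 34.8% and WT replicate 1 below its group for 31.2%.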

How the results depend on the processing

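None of the 10 tested probes was called under any of the 21 planned settings, and nerve stayed above the pool for 9 of them wherever the ratio was taken. The median over the 8 genes moved by less than the spread between arrays, but its sign was not stable: it ranged from -0.06 to 0.18 as each array was left out, was -0.09 with array weights, -0.17 without both arrays numbered 1 and -0.06 in the Cy3 channel alone on all 8 arrays. The number of calls among all tested probes was 34. It was 13 with Agilent's processed signals, 20 with no offset, 2 with median centring, 463 with array weights, 14 from the series table, 260 without the arrays numbered 1, and 6 to 197 as each array was left out (197 without SOD1G93A replicate 1). With the replicate number as a block it was 2, and the smallest adjusted p of the 10 probes was 0.532 by limma.

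Signs of differences that were not called turned often. Array weights gave -0.080 for Cnp, -0.067 for Fa2h, -0.089 for Mal, -0.074 for Mbp A_52_P329451, -0.086 for Pllp, -0.14 for Pmp22 A_55_P2040168 and -0.057 for Pmp22 A_55_P2040170. Without the arrays numbered 1 the same probes gave -0.17, -0.15, -0.17, -0.15, -0.16, -0.25 and -0.17, in that order, and Mbp A_52_P604195 gave 0.076. The Cy3 channel alone gave -0.016 for Fa2h, -0.053 for Mal, -0.057 for Mbp A_52_P329451, -0.060 for Pllp and -0.17 for Pmp22 A_55_P2040168. The Cy5 channel alone, chosen after seeing the data, gave -0.17, -0.033, -0.18, -0.13 and -0.22 for these 5. Scaling between arrays gave -0.023 for Cnp and -0.00045 for Pmp22 A_55_P2040170. Pmp2 turned to 0.28 with Agilent's processed signals and 0.28 in the series table, and Ugt8a to 0.14 and 0.15, and to 0.074 with no offset. As each array was left out, differences ranged from -0.076 to 0.19 for Cnp, -0.049 to 0.21 for Fa2h, -0.041 to 0.18 for Mal, -0.060 to 0.21 for Mbp A_52_P329451, -0.16 to 0.12 for Mbp A_52_P604195, -0.061 to 0.14 for Pllp, -0.12 to 0.24 for Pmp22 A_55_P2040168, -0.091 to 0.22 for Pmp22 A_55_P2040170 and -0.17 to 0.060 for Ugt8a. Pmp2 stayed below 0, from -0.47 to -0.17. The cause was not tested.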
